A study of Homo sapiens with 12 samples.

Results

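The genes described here are 30 genes of the synaptic vesicle cycle, chosen by symbol from a table of 55771 genes measured in KELLY cells. KELLY is an established human neuroblastoma line with amplified MYCN, grown from a tumour of the sympathetic nerve lineage. All 30 symbols were found in 1 row each, and all 30 passed the filter on low values that left 20454 genes for testing. RNA-seq was run on 12 libraries in 3 groups of 4: a control oligonucleotide, an oligonucleotide named BPS1 and another named BPS2. Each was a morpholino, an antisense molecule with an uncharged backbone. It was annealed to a charged DNA strand, the leash, which lets cationic lipid take it up into complexes for transfection. Every group, the control included, was plated for 24 h in 10% serum, moved to 4% serum, given 50 nM of its complex and lysed at 48 h. There was no group without an oligonucleotide. Nothing in the labels says whether replicates were separate cultures, and the p-values below therefore rest on differences among libraries that may be technical. The series ties both oligonucleotides to NEAT1_2, the long form of NEAT1 RNA around which nuclear paraspeckles assemble, and asks what changed across the transcriptome. The NEAT1 row of the table, which cannot separate the long from the short form, stood at 6879 ± 264 (SD, n = 4) with the control oligonucleotide. With BPS1 it was at 2024 ± 420, and with BPS2 at 4262 ± 412. It fell by 1.79 on the log2 scale in BPS1 (adjusted p = 6.00e-06, limma) and by 0.69 in BPS2 (adjusted p = 0.0239, limma).

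Neurons and neuroendocrine cells release transmitter by fusing small vesicles with the plasma membrane. A SNARE protein on the vesicle (VAMP1 or VAMP2) zips together with SNAREs on the target membrane (SNAP25 and syntaxin 1), and the assembled bundle pulls the membranes into contact. UNC13 and CADPS proteins prime vesicles for this step, complexins clamp or assist it, and synaptotagmins trigger it when calcium enters. Afterwards NSF, an ATPase, with its adaptors of the SNAP family (NAPA and NAPB) pulls the spent SNAREs apart, and dynamin cuts new vesicles from the membrane. Active zone scaffolds such as RIMS1, bassoon and piccolo hold the machinery at release sites. Sympathetic neuroblasts and the lines grown from neuroblastoma use the same proteins to release catecholamines, largely from dense-core vesicles.

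Sequences before RefSeq starts of 5 members are shown because they carry, or lack, the sites by which this gene family is often described. They come from RefSeq (GRCh38.p14), where 24 of the 30 members had 31 promoter windows; SYN3, SYT7, DOC2A, SNAP25, CPLX1 and RIMS2 had no entry. In the 250 bases before each start, on both strands, 5 kinds of site were searched among 35116 windows of all genes. The site bound by REST, the repressor of neuronal genes, was searched as its left part TTCAGCACC and right part GGACAG lying within 30 bases of each other, and 12 windows (0.0342%) held it. SYN1, the gene of synapsin I, was the only member with it, and the same stretch holds a CRE (TGACGTCA, in 1.65% of windows) and an EGR site (GCGTGGGCG or GCGGGGGCG, in 5.37%). VAMP2 is shown for an EGR site that overlaps a GC box (GGGGCGGGG, in 15.1% of windows). SYT11, NSF and CADPS, which changed in BPS1, held none of the 5 searched sites in their windows. Every stretch runs 5′ to 3′ on the gene's own strand, with the sites found in capitals.
SYN1, chrX:47619944-47620107, minus strand: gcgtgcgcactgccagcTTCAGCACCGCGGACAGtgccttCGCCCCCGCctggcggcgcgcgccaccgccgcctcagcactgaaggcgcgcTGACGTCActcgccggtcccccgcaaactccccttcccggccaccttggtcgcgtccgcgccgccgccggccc
VAMP2, chr17:8163041-8163070, minus strand: gcagcgCCCCGCCCCCGCggccccgctcgc
SYT11, chr1:155859317-155859508, plus strand: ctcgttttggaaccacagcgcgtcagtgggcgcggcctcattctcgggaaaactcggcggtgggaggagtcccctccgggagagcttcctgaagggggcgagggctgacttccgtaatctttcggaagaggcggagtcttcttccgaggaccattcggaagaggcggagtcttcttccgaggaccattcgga
NSF, chr17:46590419-46590668, plus strand: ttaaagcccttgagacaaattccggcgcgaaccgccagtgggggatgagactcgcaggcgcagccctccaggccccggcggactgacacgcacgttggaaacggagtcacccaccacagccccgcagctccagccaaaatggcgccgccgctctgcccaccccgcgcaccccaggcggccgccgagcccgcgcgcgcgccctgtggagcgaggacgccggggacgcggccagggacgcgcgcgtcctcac
CADPS, chr3:62875417-62875666, minus strand: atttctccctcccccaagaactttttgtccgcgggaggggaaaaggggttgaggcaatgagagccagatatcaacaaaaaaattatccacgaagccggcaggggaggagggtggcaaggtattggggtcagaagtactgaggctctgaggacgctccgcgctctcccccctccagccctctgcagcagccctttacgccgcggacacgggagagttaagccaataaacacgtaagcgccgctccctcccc

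Among the other windows, the GC box was found in 9 of the 24 members (SYP, SYN2, SYT5, STX1A, VAMP1, VAMP2, NAPB, UNC13A and DNM1). The EGR site was found in 5 (SYP, SV2B, SYN1, VAMP2 and UNC13A), and the E-box CACGTG, held by 6.34% of all windows, in NAPA and UNC13A. Counted by gene, as the members are here, 17.9% of 27305 genes held the GC box, 6.5% the EGR site and 7.73% the E-box. GC box and EGR letters share bases, and the member windows had a median GC content of 67.6% against 58% over all windows. A match is a description of letters and not of binding. REST itself stood at 208 ± 54.9 (SD, n = 4) in control, at 261 ± 48.9 with BPS1 and at 259 ± 36.9 with BPS2, and neither difference from control passed (adjusted p = 0.348 and 0.570, limma).

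The deposited values are normalized counts, and the libraries summed to 29.6 to 33.3 M of them. Markers of sympathetic neuroblasts, the labelled cell type, were present in every library: their 11 genes summed to 183552.6 to 205631.3 in control, 155574.3 to 192469.0 in BPS1 and 178903.9 to 189864.8 in BPS2. In BPS1, 2 of the 11 rose and 5 fell, among them HAND2. In BPS2 none rose and 2 fell in limma, and 7 had p under 0.05 before adjustment. The 6 markers of Schwann and glial cells summed to 154 to 223 in control, 176 to 221 in BPS1 and 172 to 204 in BPS2, with SOX10 and S100B below 10 everywhere. Fibroblast markers, 6 in all, summed to 1122 to 1339, 1171 to 1780 and 1331 to 1807 in the same order, and COL1A1 alone passed, rising in BPS2. The 8 markers of the mesenchymal neuroblastoma state summed to 5678 to 6191, 5649 to 7118 and 5951 to 6602. In BPS1 SNAI2 (log2 fold change 1.42) and FN1 (0.54) of these rose and CD44 fell (-0.69), and in BPS2 none passed in limma, with 2 at p under 0.05 before adjustment. The 13 mitochondrially encoded protein genes took 7.07% to 7.99% of the total in control, 6.46% to 6.83% in BPS1 and 7.10% to 7.38% in BPS2, and 6 of them fell in BPS1 and 2 in BPS2. The part of these shifts in the results below was not tested, and fewer cells of a type cannot be told apart from less RNA per cell.

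Control replicate 1 and BPS1 replicate 4 stood apart from their groups. Across all genes tested, log2 values were set against each gene's median over all 12 libraries. The SD of these deviations was 0.471 in control replicate 1 and 0.594 in BPS1 replicate 4, against 0.377 to 0.425 in the other 10 libraries. Differences between groups are part of that SD. In BPS1 replicate 4, 11 members were the highest of their group and 17 the lowest, 93.3% of the 30, where 76.9% of all tested genes were at an extreme. Control replicate 1 was at an extreme for 73.3% of the members against 68.9% of all tested genes. Members with long transcripts and low GC content tended to be low in these libraries, and short, GC-rich ones high. Each of these libraries was also set against the mean of the other 3 libraries of its group. Over the 30 members that deviation had a Spearman correlation of -0.617 with transcript length and 0.513 with GC content in BPS1 replicate 4. In control replicate 1 the values were -0.585 and 0.379. Over 14251 tested protein-coding genes the values were -0.482 and 0.384, and -0.437 and 0.293. These are correlations across genes, which share a library and are not independent. Calls were therefore also made without both libraries.

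**Figure D1:**
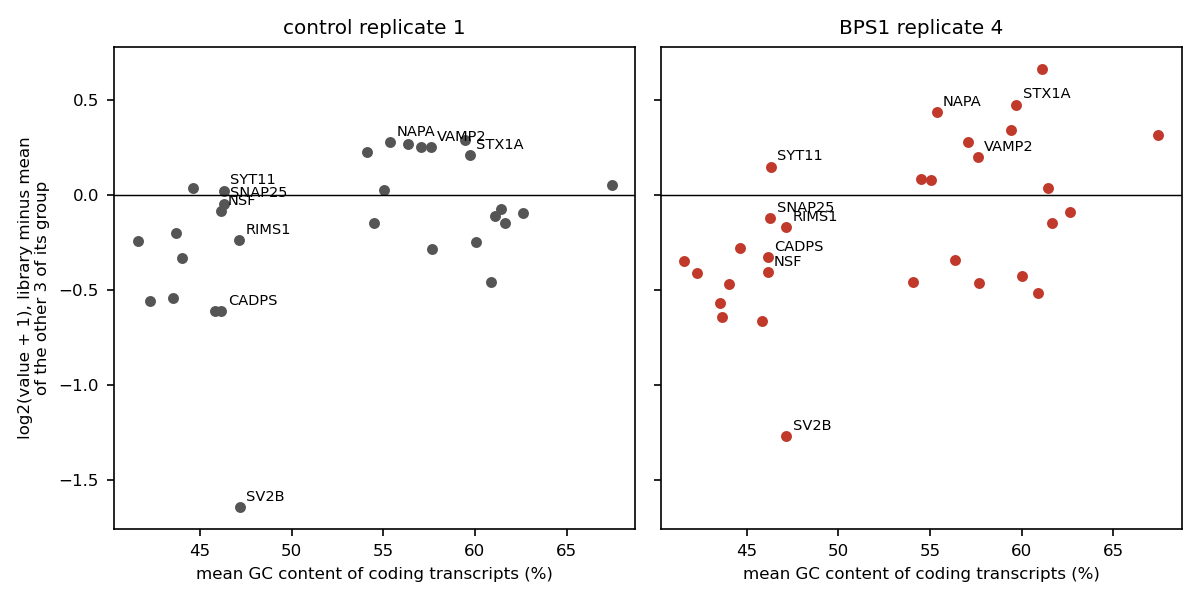
Each point is a member, placed by the mean GC content of its coding transcripts (x, percent) and by its log2(value + 1) in control replicate 1 or BPS1 replicate 4 minus the mean of the other 3 libraries of the group (y). In both panels most members below 50% GC lie under 0, and SV2B lies lowest, at -1.65 in control replicate 1 and -1.27 in BPS1 replicate 4.

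In BPS1 against control, 6 of the 30 members passed at an adjusted p under 0.05 (20%), where 8.60% of all tested genes did. SYT11 and RIMS1 rose, against 4.29% of all genes that rose, and SNAP25, VAMP2, NSF and CADPS fell, against 4.32% that fell. In BPS2 against control SYT11 rose and no other member passed (3.33% of members), where 1.21% of all genes passed, 0.821% upward and 0.386% downward. Between the 2 oligonucleotides, VAMP2 and NSF were higher in BPS2 than in BPS1 (6.67% of members) and none was lower, against 3.93% of all genes, 2.30% higher and 1.63% lower. Before adjustment, 12 members had p under 0.05 in BPS1, 3 in BPS2 and 5 in BPS2 against BPS1. The share of all tested genes with such an unadjusted p was not counted, for these or other lists. The shares above are for adjusted p and are not its background. The median log2 fold change of the 30 was -0.01, -0.04 and -0.04 in the same order, and that of all tested genes lay between -0.0026 and 0.0025. In BPS1, 14 members had a positive and 16 a negative fold change. Both comparisons with control share the same 4 control libraries. With a minimum value of 50 in place of 10, 5 members passed in BPS1, beside 12.5% of all genes. In BPS2 1 then passed beside 1.91%, and in BPS2 against BPS1 3 passed beside 5.93%. The members were chosen with earlier results of these data known, so these counts are a description.

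Without control replicate 1 and BPS1 replicate 4, 7 members passed in BPS1, beside 13.6% of all genes. NAPA and SYN1 then passed as well, and RIMS1 did not. The BPS1 fold changes were -0.38 for SNAP25, -0.39 for VAMP2, -0.32 for NSF, -0.98 for CADPS and 0.19 for SYT11, with adjusted p of 0.00207, 0.000538, 0.0116, 0.00082 and 0.0068 (limma). In BPS2 SYT11, CADPS and NAPB passed, 3 members beside 9.34% of all genes. Between BPS2 and BPS1 9 members passed, beside 17.1% of all genes: VAMP2, NSF, SNAP25, NAPA, SYP and SYT5 were higher in BPS2, and BSN, NAPB and SV2C lower. The differences were 0.37 for VAMP2 and 0.38 for NSF, with adjusted p of 0.000464 and 0.0032 (limma).

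**Figure D2:**
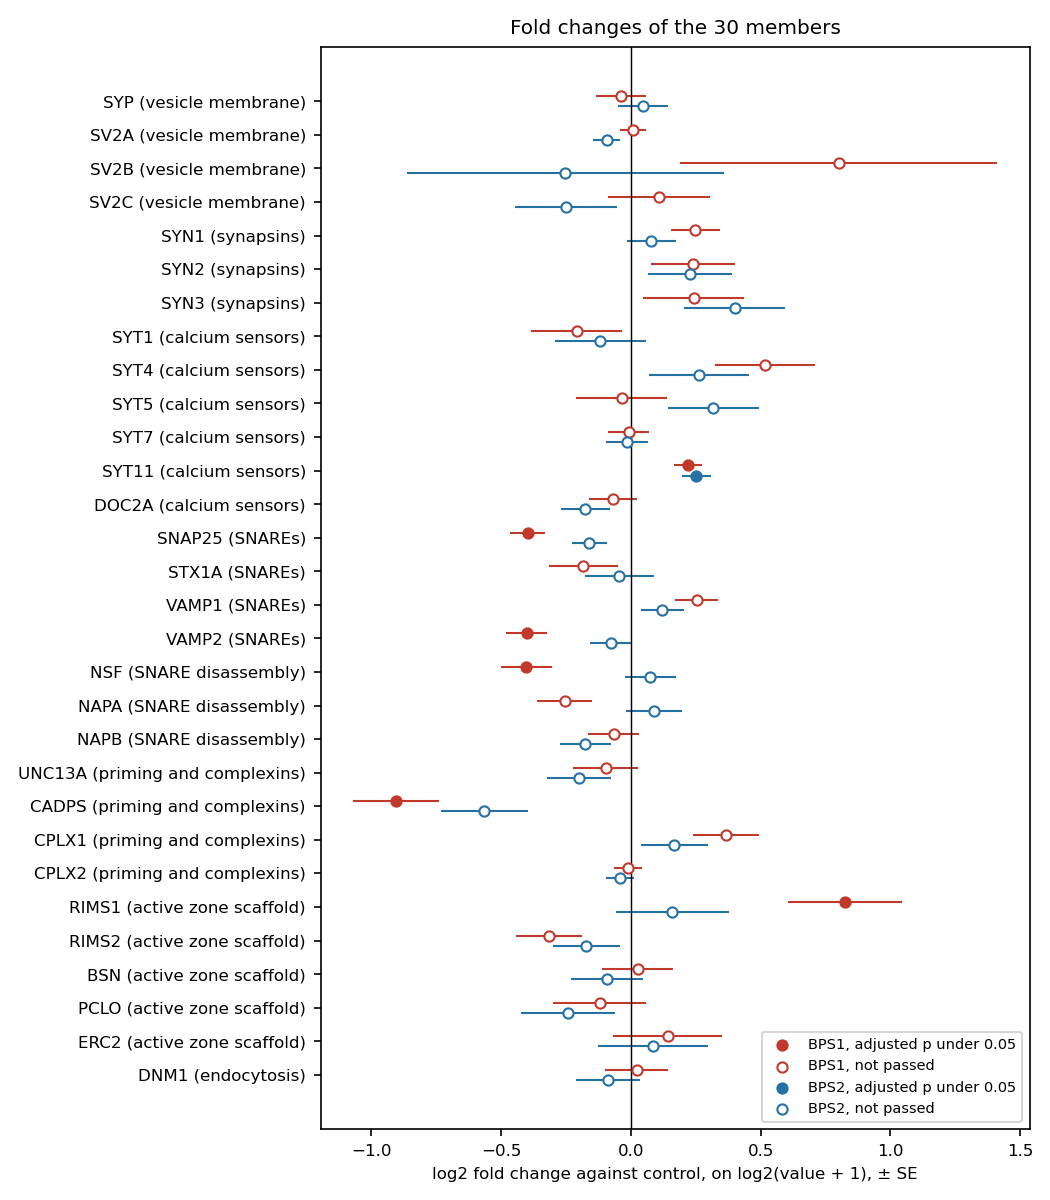
Log2 fold change against control (x, on log2(value + 1)) of each of the 30 members (y, with role), with bars of ± 1 SE from the limma fit of 4 libraries a group; filled points passed at an adjusted p under 0.05. CADPS lies farthest to the left in BPS1 at -0.91, RIMS1 is the filled point farthest to the right at 0.83, and SYT11 is the only member filled in both colours.

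Groups that did not overlap in any library were found for 8 members in BPS1 against control, 4 higher and 4 lower. Over all tested genes 14.3% did not overlap, 7.50% higher and 6.81% lower. Besides the 6 members that passed, these were VAMP1 and CPLX1, both higher. In BPS2 against control the groups did not overlap for SYT11, which was higher, and for SV2A, DOC2A and SNAP25, which were lower, beside 9.65% of all genes, 5.41% higher and 4.23% lower. In BPS2 against BPS1 they did not overlap for SNAP25, VAMP2 and NSF, higher in BPS2, and for SV2A and RIMS1, lower in BPS2, beside 11.9% of all genes, 6.08% higher and 5.80% lower. With 4 libraries against 4 the exact two-sided permutation test over 70 arrangements cannot go below p = 0.0286. Groups that do not overlap always give that value, so for these members it adds nothing to the lack of overlap.

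The SNAREs included 2 of the 4 members that fell in BPS1. SNAP25 (ENSG00000132639, chromosome 20, 10218830 to 10307418, plus strand, GRCh38) encodes a SNARE of the plasma membrane that gives the fusion bundle a pair of its helices. Its normalized counts were 1647, 1704, 1802 and 1600.3 in control replicates 1 to 4, 1342, 1259.5, 1320.5 and 1202 in BPS1, and 1527, 1521, 1438 and 1552 in BPS2. Every BPS1 library lay below every BPS2 library, and every BPS2 library below every control library. The fold change was -0.40 on the log2 scale in BPS1 (SE 0.0669, adjusted p = 0.00274, limma), or 0.759 times control. In BPS2 it was -0.16, which did not pass (adjusted p = 0.368, limma), and the difference of 0.24 between BPS2 and BPS1 did not pass either (adjusted p = 0.0712, limma). Without control replicate 1 and BPS1 replicate 4 that difference was 0.21 (adjusted p = 0.0289, limma), and over all alternatives the adjusted p ran from 0.0151 to 0.186.

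VAMP2 (ENSG00000220205, chromosome 17, 8159149 to 8163546, minus strand), the main vesicle SNARE of neurons, had normalized counts of 2899, 2505, 2480.5 and 2318 in control, 1866, 1855, 1857 and 2136 in BPS1 and 2356, 2478, 2473 and 2330.2 in BPS2. Control and BPS2 libraries overlapped, and all 4 BPS1 libraries lay below both. VAMP2 fell in BPS1 by 0.40 on the log2 scale (SE 0.0789, adjusted p = 0.00745, limma). It was higher in BPS2 than in BPS1 by 0.32 (adjusted p = 0.0374, limma). That difference missed the threshold when control replicate 2 or 3, BPS1 replicate 1, 2 or 3 or any BPS2 library was left out, with an adjusted p of 0.112 without BPS1 replicate 3 and a range of 0.000414 to 0.121 over all alternatives. In BPS2 the change from control was -0.08 (adjusted p = 0.784, limma).

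VAMP1 encodes the other vesicle SNARE of this pair, and its normalized counts were 809, 911, 956 and 828 in control, 989.95, 1033, 1059.9 and 1089 in BPS1 and 956, 1007, 845 and 1004 in BPS2. All BPS1 libraries lay above all control libraries, the opposite of VAMP2. The fold change of 0.25 did not pass (adjusted p = 0.0808, limma). The ratio of VAMP2 to VAMP1 counts was 2.93 ± 0.443 (SD, n = 4) in control, against 1.85 ± 0.0935 with BPS1 and 2.54 ± 0.264 with BPS2, with each BPS1 library below each control library. A ratio of this kind shows unequal change and not which gene moved. STX1A, which encodes the SNARE syntaxin 1A, ranged from 459 to 681 over the 12 libraries, and its fold changes of -0.18 in BPS1 and -0.05 in BPS2 did not pass.

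**Figure D3:**
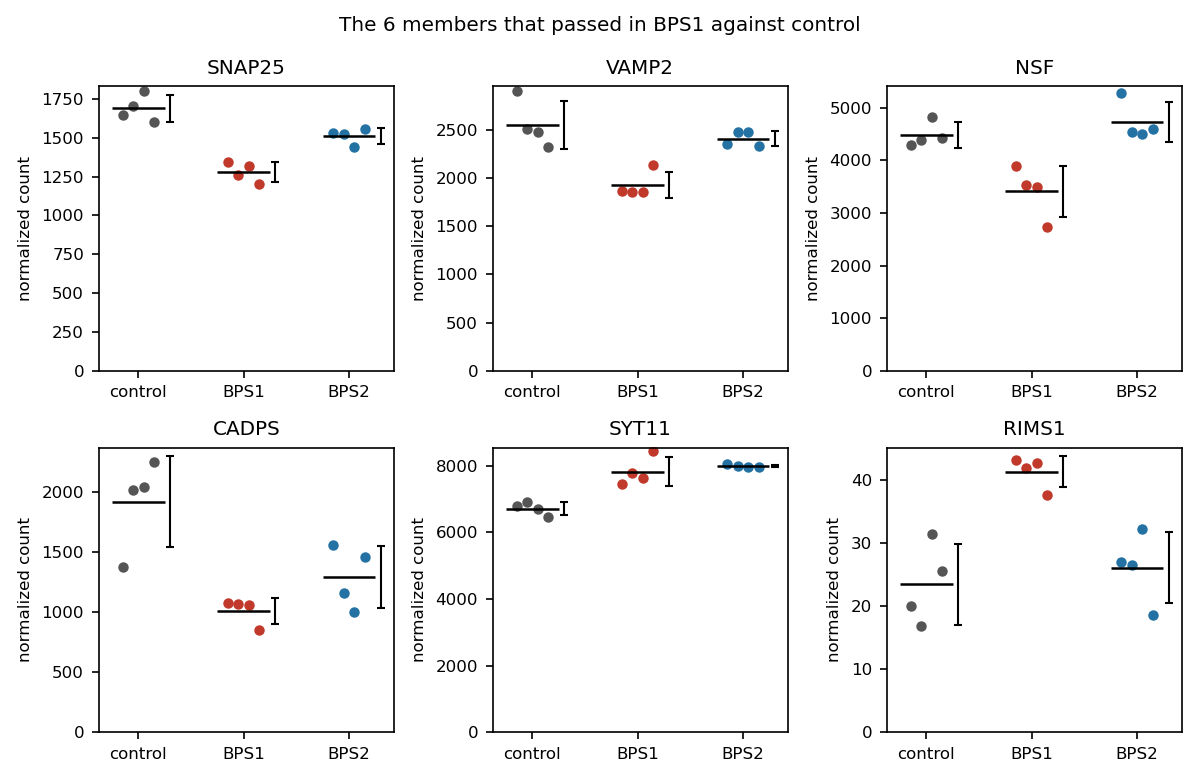
Normalized counts (y, from 0) of the 6 members that passed in BPS1 against control, with 1 point per library, a line at the mean and a bar of ± 1 SD for each group of 4. The BPS1 points of SNAP25, VAMP2, NSF and CADPS all lie below the control points, those of RIMS1 and SYT11 all lie above, and the BPS2 points of SYT11 lie within 7956 to 8049.8.

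The genes that take SNAREs apart gave the third member that fell. NSF (ENSG00000073969, chromosome 17, 46590669 to 46757464, plus strand), the ATPase that recycles SNAREs in every secretory step of the cell, had normalized counts of 4288, 4390.5, 4835 and 4425 in control, 3888, 3539, 3487 and 2743 in BPS1 and 5288, 4534, 4504 and 4593 in BPS2. All BPS1 libraries were below all others, and BPS1 replicate 4 was the lowest of them. NSF fell in BPS1 by 0.40 (SE 0.0987, adjusted p = 0.0238, limma), and BPS2 exceeded BPS1 by 0.48 (adjusted p = 0.0161, limma). The fall missed the threshold without control replicate 2, 3 or 4 or BPS1 replicate 3, with adjusted p from 0.00389 to 0.0730 over all alternatives. Without BPS2 replicate 1 the difference between the oligonucleotides had an adjusted p of 0.0561, the highest of a range that began at 0.00154. Reads of NSF and of its pseudogene copy NSFP1 may be assigned to either. NSFP1 stood at 168 to 587 in control, 130.06 to 432 in BPS1 and 316 to 443 in BPS2, and the NSF values are uncertain for that reason.

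NAPA, which encodes the adaptor alpha-SNAP, had normalized counts of 2664, 2323, 2181 and 2097 in control, 1803, 1789.5, 1783 and 2425.5 in BPS1 and 2402, 2603, 2359 and 2455 in BPS2. In BPS1 the fourth library stood among the controls, and the other 3 lay below every control library. With all libraries the fold change of -0.26 did not pass (adjusted p = 0.172, limma), and without BPS1 replicate 4 it was -0.36 (adjusted p = 0.0107, limma). Likewise the difference of 0.34 between BPS2 and BPS1 had an adjusted p of 0.101 with all libraries and was 0.45 without BPS1 replicate 4 (adjusted p = 0.00457, limma). The values of NAPA are given in full because of that library, a choice made after they were seen. NAPB, which encodes the neuronal relative beta-SNAP, ranged from 486 to 645, with fold changes of -0.07 in BPS1 and -0.18 in BPS2 that did not pass.

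CADPS had the largest fold change of the members that passed in BPS1. The gene (ENSG00000163618, chromosome 3, 62398346 to 62875389, minus strand) encodes CAPS1, a priming factor best known for dense-core vesicles. Its normalized counts were 1373, 2015, 2040.4 and 2250.1 in control, 1073, 1067, 1059 and 849 in BPS1 and 1560, 1160.5, 1003 and 1459 in BPS2. All 4 BPS1 libraries lay below the lowest control, which was replicate 1, and the BPS2 libraries spread from the BPS1 range into the control range. CADPS fell in BPS1 by 0.91 (SE 0.167, adjusted p = 0.00494, limma), to 0.534 times control. In BPS2 it was lower by 0.57 without passing (adjusted p = 0.166, limma), and without control replicate 1 that difference was -0.72 (adjusted p = 0.0380, limma).

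UNC13A, which encodes the priming factor Munc13-1, ranged from 3399 to 5343, with fold changes of -0.10 in BPS1 and -0.20 in BPS2 that did not pass. CPLX2, which encodes complexin 2, was the most abundant priming gene by normalized counts: 6169.9, 6225, 6638 and 6649.5 in control, 6458, 6109.6, 6422 and 6486 in BPS1 and 6168, 6469, 6204 and 6098 in BPS2. Its groups overlapped, with fold changes of -0.01 and -0.04 and a 95% interval of -0.13 to 0.10 in BPS1. CPLX1, which encodes complexin 1, was at 502, 491, 478 and 486 in control, 558, 687, 555 and 744 in BPS1 and 501, 604, 663 and 454 in BPS2. All BPS1 libraries lay above all controls, whose coefficient of variation was 2.11%. The BPS1 libraries split into a lower and a higher pair, and the fold change of 0.37 did not pass (adjusted p = 0.104, limma).

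Among the calcium sensors SYT11 rose with both oligonucleotides. SYT11 (ENSG00000132718, chromosome 1, 155859509 to 155885199, plus strand) encodes a synaptotagmin that does not bind calcium and is known as an inhibitor of vesicle retrieval. Its normalized counts were 6791, 6898, 6696 and 6452.5 in control, 7452, 7765, 7625 and 8443 in BPS1, and 8049.8, 7985, 7956 and 7969 in BPS2. Both treated groups lay above every control library, and the BPS2 libraries lay close together at 7990 ± 41.7 (SD, n = 4). The rise was 0.22 in BPS1 (SE 0.0547, adjusted p = 0.0256, limma) and 0.25 in BPS2 (SE 0.0547, adjusted p = 0.0453, limma), with a difference of 0.03 between the 2 oligonucleotides (95% interval -0.09 to 0.15, adjusted p = 0.841, limma). The BPS2 call is close to the threshold: it was lost under 16 of 25 other settings, among them the omission of any library but BPS1 replicate 4, with adjusted p from 0.00154 to 0.179. The BPS1 call was lost under 9 of 25, among them without control replicate 2, 3 or 4 or BPS1 replicate 2 or 3, with adjusted p from 0.00487 to 0.117, and the fold change stayed between 0.18 and 0.24 there and between 0.23 and 0.27 in BPS2.

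SYT11 has 1 annotated transcript and was the only member whose values were whole multiples of the value of 1 read in all 12 libraries, to a tolerance of 0.001. In control replicate 1 it had 6678 reads, with a 95% exact Poisson interval of 6519 to 6840.1, which as a normalized count is 6629 to 6956. The interval covers counting error only, since PCR copies of a molecule are counted as separate reads. In BPS1 replicate 1, the lowest of the treated libraries, the same interval was 7288 to 7618 normalized counts. It lay above the interval of every control library, the highest of which ended at 7062. Intervals were also apart within the control group: that of replicate 2 began at 6738 and that of replicate 4 ended at 6616.

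The other calcium sensors did not pass. SYT1, which encodes the main sensor of fast release, ranged from 997 to 1709 over the 12 libraries, with fold changes of -0.21 in BPS1 and -0.12 in BPS2. SYT4, which encodes a synaptotagmin induced by activity in neurons, ranged from 590.07 to 1491. Its fold change was 0.52 in BPS1 (adjusted p = 0.125, limma), 0.66 without BPS1 replicate 4 (adjusted p = 0.0357, limma) and 0.52 without both that library and control replicate 1 (adjusted p = 0.0570, limma). SYT7, a slow, high-affinity sensor, had fold changes of -0.01 in both groups, with 95% intervals of -0.18 to 0.16 in BPS1 and -0.19 to 0.16 in BPS2. SYT5 ranged from 299 to 581 and was 0.32 higher in BPS2 without passing (adjusted p = 0.543, limma). DOC2A, a sensor linked to spontaneous release, lay at 521 to 622 in BPS2 and at 635 to 732 in control, with a fold change of -0.18 that did not pass (adjusted p = 0.516, limma). DOC2A overlaps INO80E on the opposite strand, whose counts were 1587 in control, 2035 in BPS1 and 1881 in BPS2, and whether the counting used strand is not given in the sources used here.

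Of the active zone scaffolds RIMS1 rose in BPS1, from a low level. RIMS1 (ENSG00000079841, chromosome 6, 71886703 to 72403143, plus strand) encodes RIM1, which links vesicles to calcium channels. Normalized counts were 20.1, 16.8, 31.6 and 25.5 in control, 43.2, 42.0, 42.7 and 37.7 in BPS1 and 27.0, 26.6, 32.3 and 18.6 in BPS2. All BPS1 libraries lay above all others, and the control and BPS2 libraries overlapped. The rise was 0.83 (SE 0.219, adjusted p = 0.0342, limma). It was lost under 10 of 24 other settings, among them without control replicate 1, 2 or 4 or BPS1 replicate 1, 2 or 3, with adjusted p from 0.0215 to 0.0997. Without control replicate 1 and BPS1 replicate 4 it was 0.81 (adjusted p = 0.0615, limma). BPS2 was lower than BPS1 by 0.67, which did not pass (adjusted p = 0.123, limma).

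BSN, which encodes the large scaffold bassoon, was the most abundant scaffold gene by normalized counts: 1809.7, 2262, 2420.4 and 2808 in control, 2518, 2613, 2540.1 and 1786 in BPS1 and 2253, 2245.5, 2067 and 2065 in BPS2. Lowest in control and BPS1 were the 2 libraries that stood apart, and the fold changes of 0.03 and -0.09 did not pass. Between BPS2 and BPS1 BSN differed by -0.12 with all libraries (adjusted p = 0.752, limma) and by -0.25 without those 2 (adjusted p = 0.0349, limma). PCLO, which encodes piccolo, the partner of bassoon, ranged from 388 to 674, and ERC2, which encodes another scaffold of the active zone, from 89.2 to 175. RIMS2, which encodes RIM2, ranged from 577 to 1045 and was 0.32 lower in BPS1 without passing (adjusted p = 0.161, limma), the opposite sign to RIMS1.

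None of the vesicle membrane proteins or synapsins passed in any comparison when all libraries had equal weight in limma. Before adjustment SYN1 in BPS1 was the only one with p under 0.05. With library weights, SYN1 in BPS1 (0.23, adjusted p = 0.0420, limma) and SV2C in BPS2 against BPS1 (-0.50, adjusted p = 0.0210, limma) passed. SV2A, which encodes a glycoprotein of all synaptic vesicles and the target of the drug levetiracetam, had the smallest spread in control of any member, a coefficient of variation of 1.30%. Normalized counts were 4439, 4311, 4343 and 4397 in control, 4270.5, 4305, 4434 and 4579 in BPS1 and 4144, 4027, 4095 and 4125 in BPS2. All BPS2 libraries lay below all others, by 0.09 against control and 0.10 against BPS1 (adjusted p = 0.536 and 0.346, limma). SV2B, the rarest member, had 4.22 to 47.3 counts with a coefficient of variation of 56.8% in control, and SV2C, which is best known in basal ganglia, ranged from 640.2 to 1239. SYP, which encodes synaptophysin, the classical marker of these vesicles and of neuroendocrine tumours, ranged from 1720.4 to 2271, with fold changes of -0.04 and 0.05.

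Synapsins tether vesicles to each other and to the cytoskeleton. SYN1 had normalized counts of 836, 704, 719 and 685 in control, 843, 771, 882 and 1007 in BPS1 and 745, 748, 791 and 818 in BPS2. Its BPS1 libraries overlapped with control replicate 1 alone. The fold change of 0.25 did not pass (adjusted p = 0.134, limma), and without control replicate 1 and BPS1 replicate 4 it was 0.24 (adjusted p = 0.0449, limma). SYN1 overlaps ARAF and TIMP1 on the opposite strand, and TIMP1 counts were 569 in control, 796 in BPS1 and 805 in BPS2. These are overlaps of whole gene spans, and whether any TIMP1 reads were counted in SYN1 was not tested. SYN2 ranged from 355 to 594 and SYN3 from 28.9 to 63.9, and all 3 synapsins had positive fold changes in both groups. Of these the fold change of SYN1 in BPS1 passed with library weights or without those 2 libraries, and the others passed in neither fit. DNM1, which encodes dynamin 1, the neuronal enzyme of vesicle scission, had normalized counts of 2875, 3287, 3382 and 3582 in control, 3106, 4113, 3579.8 and 2661 in BPS1 and 2742, 3110.4, 3383 and 3106.5 in BPS2. Its groups overlapped, with fold changes of 0.02 and -0.09, and it overlaps CIZ1 on the opposite strand (5354 counts in control), as STX1A overlaps BUD23 and VAMP1 overlaps TAPBPL.

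**Figure D4:**
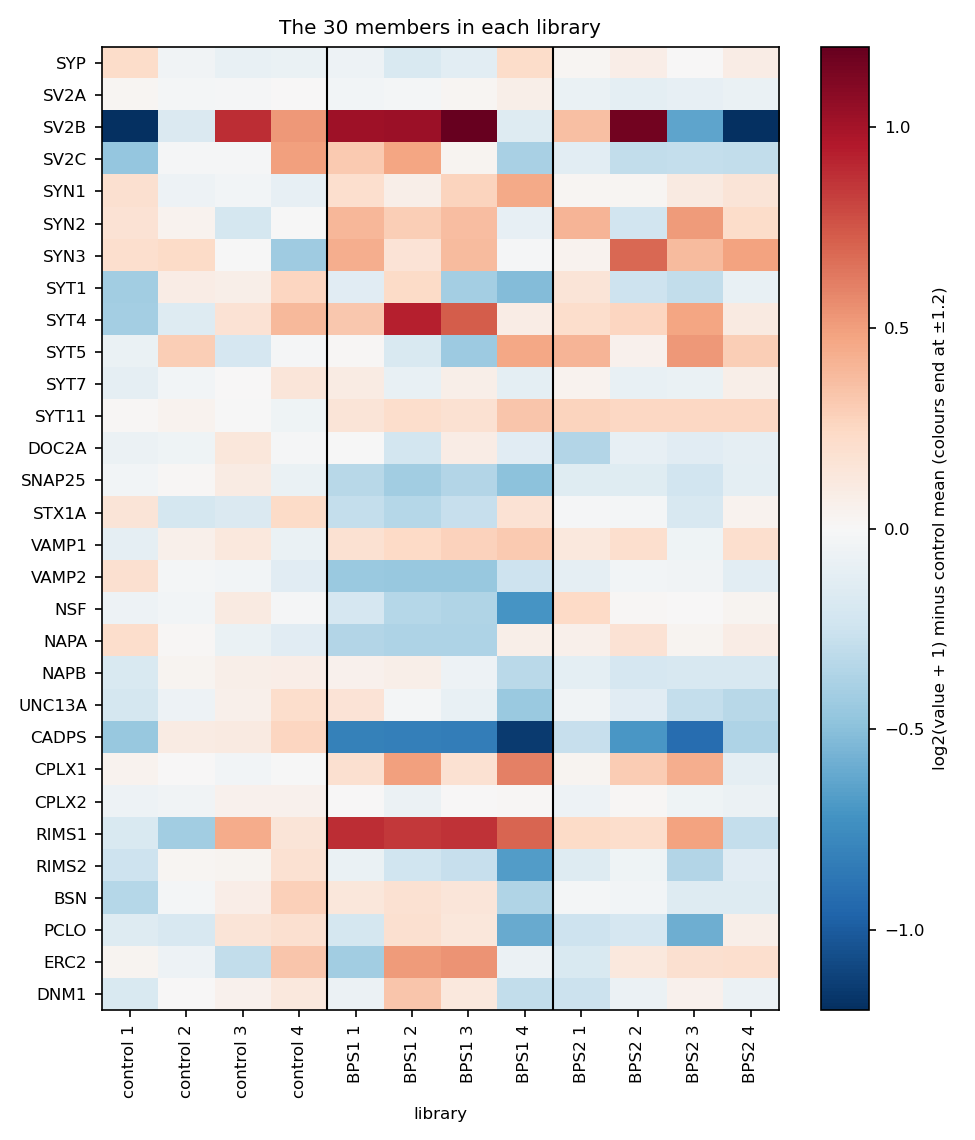
Log2(value + 1) minus the control mean (colour, ending at ± 1.2) for each of the 30 members (rows) in each of the 12 libraries (columns). The rows of SNAP25, VAMP2, NSF and CADPS are blue across all 4 BPS1 columns, RIMS1 and SYT11 are red there, and SYT11 is also red in all 4 BPS2 columns.

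Levels were compared between members as normalized counts per kilobase of the longest principal transcript (GENCODE 29). In control, SYT11 (1280.4 ± 36.3 per kb, SD, n = 4), CPLX2 (1278 ± 51.5), NAPA (1259.5 ± 136), VAMP2 (1185 ± 115) and NSF (1126 ± 60.4) were highest, and neighbours in that order overlapped. SNAP25 was at 822 ± 42.3 per kb and SYP at 785 ± 82.8. At the low end SYN3 was at 12.7 ± 2.54 per kb, RIMS1 at 4.63 ± 1.27 and SV2B at 1.88 ± 1.07, and each of these was apart from its neighbours. In all, 19 of the 30 members lay above 207 per kb, the median of 14251 tested protein-coding genes. In control VAMP2 lay above VAMP1, which was at 787 ± 62.2 per kb, in every library, while in BPS1 VAMP2 at 896 ± 64.3 and VAMP1 at 937 ± 37.7 per kb overlapped. The order depends on the length taken: per median annotated transcript CPLX2 ranked above all other members, and SYT11 ranked 6. In control VAMP2 was then at 2168 and VAMP1 at 803 per kb. The overlap of VAMP2 and VAMP1 in BPS1 therefore rests on the principal lengths.

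**Figure D5:**
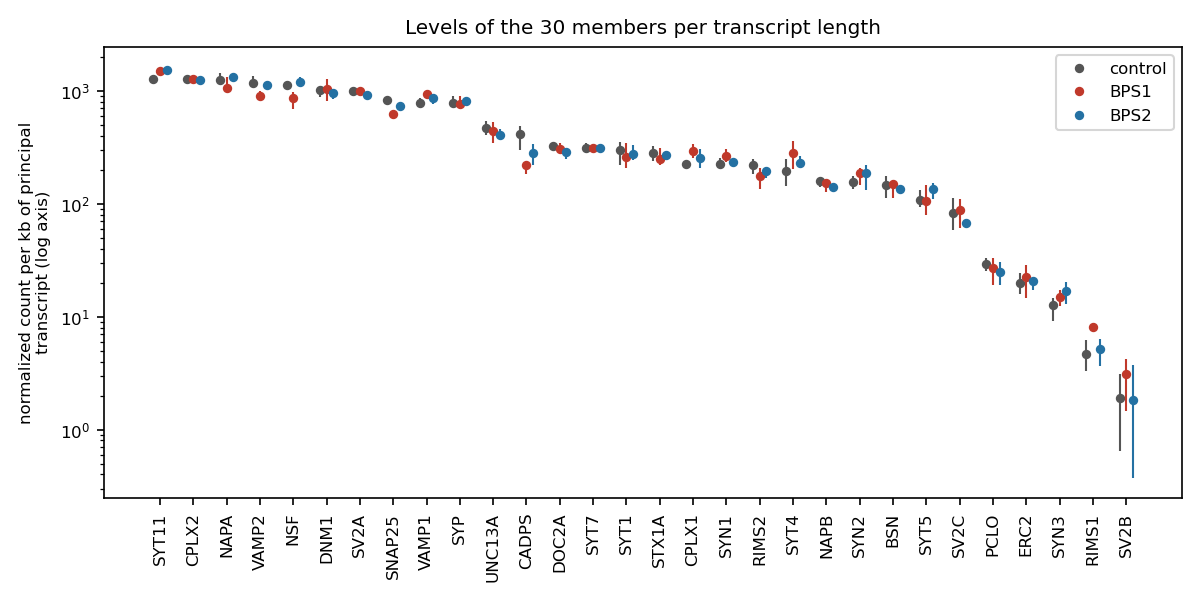
Normalized count per kilobase of the longest principal transcript (y, log axis) for each member (x, in order of the control mean); points are group means of 4 libraries and bars run from the lowest to the highest library. Levels run from 1280.4 for SYT11 to 1.88 for SV2B in control, and the BPS1 bars of VAMP2, NSF, SNAP25 and CADPS lie below their control bars.

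A wider list of 128 other genes of exocytosis, vesicle recycling and dense-core vesicles was read out beside the members, of which 115 passed the filter. In BPS1 7 rose and 16 fell (20% of those tested), in BPS2 3 rose and 2 fell (4.35%), and 7 were higher and 1 lower in BPS2 than in BPS1 (6.96%). The median log2 fold change was -0.08 in BPS1 and 0.01 in BPS2. Without control replicate 1 and BPS1 replicate 4, all 23, 5 and 8 of these calls were kept. In that fit more of all genes passed, 13.6%, 9.34% and 17.1% in the same order. The 2 libraries were picked for their spread in these same data, so calls kept there add no support. When 1 library was left out, 17 to 24, 3 to 14 and 4 to 13 genes of the list passed. Of 17 further SNARE genes tested, STX2, which encodes another syntaxin, was the only one to pass in BPS1, from 1954.5 ± 145 to 1571 ± 102.

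Further calcium sensors moved in both directions in BPS1, with 2 of 19 up and 2 down. DOC2B, a close relative of DOC2A, fell from 1315 ± 100.6 to 769 ± 123 (log2 fold change -0.78, adjusted p = 0.000504, limma), and SYT2, a fast sensor like SYT1, fell from 3095 ± 130 to 2515 ± 97.6. SYT9 rose from 16.8 ± 3.60 to 39.1 ± 6.80 and RPH3A, an effector of RAB3, from 3349.6 ± 466 to 4678 ± 531. DOC2B, SYT2 and SYT13 were higher in BPS2 than in BPS1, by 0.41, 0.51 and 0.61. Among 22 genes of the active zone and priming, none rose in BPS1 in limma and 3 fell, while 7 had p under 0.05 before adjustment. They were RIMS3, a short relative of RIMS1, from 4311 ± 148 to 3343 ± 87.1, TSPOAP1, which encodes a RIM-binding protein, from 1087.5 ± 123 to 672 ± 135, and RAB3A, the GTPase of synaptic vesicles, from 239 ± 23.4 to 163 ± 12.5. RAB3A also fell in BPS2, to 159 ± 20.7 (adjusted p = 0.0304, limma).

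In the vesicle membrane group 2 of 15 rose and 4 fell in BPS1. SLC18A2 and SLC18A1, the vesicle transporters that load catecholamines, fell from 390.5 ± 50.1 to 205 ± 80.4 and from 507 ± 27.3 to 366 ± 44.8. SYNGR1, a relative of synaptophysin, fell from 2710.4 ± 25.0 to 2075 ± 114, while SCAMP2, a membrane protein of secretory carriers, rose from 1430.3 ± 68.7 to 1845 ± 154. In BPS2 no gene of this group passed in limma, with 3 at p under 0.05 before adjustment, and against BPS1 SLC18A1 was higher by 0.48 and SCAMP2 lower by 0.40. Of 29 endocytosis genes, SYNJ2, which encodes a lipid phosphatase, rose in both groups, from 481 ± 57.9 to 620.4 ± 26.0 in BPS1 and 763 ± 60.3 in BPS2. PACSIN1, a neuronal membrane-bending protein, fell in BPS1 from 211 ± 17.6 to 123 ± 5.92 and was higher in BPS2 than in BPS1 by 0.54.

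Dense-core vesicle genes had the highest share of calls of these 6 role groups in BPS1, with 2 of 13 up and 5 down. SCG2, which encodes secretogranin II, rose from 1058 ± 90.03 to 2244.5 ± 381 in BPS1 and 2108 ± 107 in BPS2, and VGF, which encodes a neuropeptide precursor, from 195 ± 20.3 to 531 ± 154 and 437 ± 68.9. The genes of 2 enzymes that process neuropeptides, CPE and PAM, fell in BPS1 from 1304 ± 123 to 825 ± 15.2 and from 2558 ± 85.4 to 1902 ± 96.6. In BPS2 CPE and PAM were higher than in BPS1 by 0.54 and 0.46. HID1, a gene of dense-core vesicle formation, fell in both groups, from 1022 ± 197 to 504 ± 79.6 in BPS1 and 616 ± 83.4 in BPS2. The wider list was put together with earlier results of these libraries known, so its counts are a description. They stand beside 8.60% of all genes in BPS1, 1.21% in BPS2 and 3.93% in BPS2 against BPS1.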

How the data were processed

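RNA was sequenced as 100-base single reads after ribosomal depletion with a stranded kit, per the labels' protocols, and FastQC 0.11.7, Salmon 0.8.2, DESeq2 and GRCh38 are named per the submitters' processing notes. Not given in the sources used here are the annotation release, how transcripts were summed, and whether strand was used. The deposited signal values are normalized counts, 1 for each gene in each library. BPS2 columns were matched by sample title, although the description of those samples reads KPAS, and all BPS2 values depend on both names meaning the same libraries. Low values came in steps of 0.940 to 1.09, the value of 1 read, and the totals divided by these steps gave 29.1 to 31.8 M, beside a stated mean of 25 M. Replicates differed by more than sampling noise (chi-square per gene 1.81 to 27.1 over 4730 genes).

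Genes reaching 10 in 4 or more of the 12 libraries were tested on log2(value + 1), in which low genes' changes are understated, with limma 3.58.1 in R 4.3.3 (group means over all 12 libraries, trended variance, Benjamini-Hochberg over 20454 genes, two-sided, adjusted p under 0.05). Positions, lengths and GC content are from GENCODE 29 (GRCh38). Full values are given for members that passed anywhere, the most abundant of each role by normalized count, and members with groups apart and p under 0.05 before adjustment; from the wider list, up to 4 genes per role and comparison with the smallest p. The members and lists were chosen with earlier results of these data known.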

Additional observations from a re-analysis of the deposited data

Results flagged for a closer look

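Of 90 sets of 4 libraries (30 members in 3 groups), 11 had an extreme library whose gap to the next, as a share of the range, was above Dixon's 95% critical value for 4 samples. Chance flags about 1 in 20 such sets. In BPS1 replicate 4, 5 members were flagged: STX1A at 657.3 (next 480), VAMP2 at 2135.9 (next 1866) and NAPA at 2425.5 (next 1803) were high, and CADPS at 849.07 (next 1059) and BSN at 1786.1 (next 2518) were low. In BPS2 replicate 1, 4 were flagged: SV2C at 805.53 (next 722), NSF at 5288.3 (next 4593) and NAPB at 560.19 (next 534) were high, and DOC2A at 521.39 (next 605) was low. SYP was high in control replicate 1 at 2267.8 (next 1893.5), and CPLX2 was low in BPS1 replicate 2 at 6109.6 (next 6422).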

How the results depend on the processing

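Within a comparison, no member that passed there in any fit changed direction under the alternatives tried. Fold changes of some members changed sign in comparisons in which they did not pass. For SV2B in BPS2 against control they ran from -0.72 to 0.29, and for SYT5 in BPS1 from -0.24 to 0.10. Over all members and comparisons, 2161 alternative results stayed on their side of the threshold, 55 lost it and 28 gained it. SNAP25, VAMP2 and CADPS passed in BPS1 under all 25 alternatives. For the counts below, shares of all genes at a 1.5-fold minimum or at an adjusted p under 0.10 were not computed.

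In BPS1 against control 6 members passed. There were 3 with only the groups compared in the fit (beside 4.43% of all genes) and 2 with at least a 1.5-fold change (CADPS and RIMS1). When 1 library was left out 3 to 8 passed, beside 5.39% to 11.6% of all genes. Without control replicate 1 and BPS1 replicate 4, 7 of the members passed, beside 13.6% of all genes. In BPS2 against control 1 passed. The count was 0 without a filter (beside 0.41% of all genes), with robust variance (1.17%) or without a variance trend (0.895%). It was also 0 with GC correction (1.63%) or with at least a 1.5-fold change. With library weights 2 passed (beside 6.34%), and 0 to 1 when 1 library was left out (0.557% to 2.62%). Without those 2 libraries 3 passed (CADPS, NAPB and SYT11, beside 9.34%). In BPS2 against BPS1 2 passed. The count was 1 without a filter (beside 1.34% of all genes) or without a trend (3.45%), 7 with library weights (17.7%) and 4 with GC correction (4.94%). It was 0 with only the groups compared (2.65%) or with at least a 1.5-fold change. When 1 library was left out 0 to 4 passed (beside 2.33% to 8.62%), and 9 without those 2 libraries (17.1%).

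Of the wider list 23 passed in BPS1, and 9 with at least a 1.5-fold change. When 1 library was left out 17 to 24 passed, beside 5.39% to 11.6% of all genes. In BPS2 5 passed, but 3 without a filter (beside 0.41% of all genes), 22 with library weights (6.34%) and 8 with GC correction (1.63%). There were 9 at an adjusted p under 0.10, 22 without the 2 libraries (beside 9.34%) and 3 to 14 when 1 was left out (0.557% to 2.62%). In BPS2 against BPS1 8 passed, but 27 with library weights (beside 17.7% of all genes) and 26 without the 2 libraries (17.1%). There was 1 with at least a 1.5-fold change, and 4 to 13 when 1 library was left out (beside 2.33% to 8.62%). The cause of these shifts was not tested.

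The replicate numbers gave no sign of pairing the libraries. Same-numbered libraries of 2 groups had deviations correlated at -0.272 to 0.103, with 1 of 12 pairs above 0.1. By this measure 0 of 12 libraries correlated best with their own number. These correlations also hold the shifts of control replicate 1 and BPS1 replicate 4, and cannot exclude a small effect shared by number. With a replicate block 4 members passed in BPS1, 0 in BPS2 and 1 in BPS2 against BPS1, beside 5.22%, 0.577% and 2.19% of all genes. In that fit 3 genes of the wider list passed in BPS2 and 4 in BPS2 against BPS1.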
